A study of Homo sapiens with 6 samples.

Results

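The genes described here are 43 genes of the ESCRT machinery, the tetraspanins and exosome release, taken by gene symbol, with no expression threshold, from the 60623 genes in the deposited tables. They were read in poly-A RNA of the cell line DU145, which was established from a human prostate cancer, is labelled wild type and was grown in RPMI-1640 with fetal bovine serum. One group was treated with 1 µM CCS1477 for 24 h, a compound also called inobrodib that blocks the bromodomains of p300 and CBP, a pair of acetyltransferases, and its control received the solvent DMSO for 24 h. Each group had 3 libraries, all from a single cell line. The labels do not say whether these came from separate cultures, and the p-values below refer to the variation among these libraries, which could be technical.

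Exosomes are small vesicles that form when the membrane of a late endosome buds inward, making a multivesicular body, and that leave the cell when this body fuses with the plasma membrane. In the canonical route ESCRT-0 gathers ubiquitinated cargo, ESCRT-I and ESCRT-II shape the bud, ESCRT-III filaments cut its neck and the VPS4 ATPases take the filaments apart. Other routes use ALIX with syntenin, tetraspanin-rich membrane domains, or ceramide made by neutral sphingomyelinases, and docking and fusion need RAB27 effectors and SNARE proteins. PD-L1, the immune checkpoint ligand, is known to be carried on exosomes of tumour cells, prostate cancer cells among them.

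Library totals were 8691382 to 9412867 counts in CCS1477 and 8286880 to 11956734 in DMSO, and 3 counts, taken as the detection floor, were worth 0.312 to 0.343 CPM in CCS1477 and 0.256 to 0.368 CPM in DMSO. CPM values here are counts scaled to the library total after TMM normalisation, and floors cover counting error only. The epithelial keratins averaged 728 TPM (KRT8) and 798 TPM (KRT18) in CCS1477, against 712 and 805 TPM in DMSO. The epithelial cadherin gene CDH1 fell by 1.17 on the log2 scale, to 85.0 ± 2.33 CPM in CCS1477, against 190.9 ± 21.8 CPM in DMSO (SD, n = 3 each, edgeR adjusted p = 1.64e-05), and its part in the results below was not tested. The prostate luminal markers KLK3 and KLK2 were listed at 0 in every library, as were the leukocyte markers PTPRC and CD3E, the endothelial marker PECAM1 and the fibroblast marker DCN. Mitochondrial transcripts took 4.46% to 5.85% of counts in CCS1477 and 5.15% to 6.26% in DMSO. The 43 genes together took 0.378%, 0.396% and 0.395% of the counts in CCS1477 and 0.366%, 0.364% and 0.386% in DMSO. Per length, their TPM summed to 3314, 3438 and 3395 in CCS1477 and 3279, 3359 and 3230 in DMSO, ranges that overlapped.

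CCS1477 changed a few of these genes, each by less than 2-fold. Of the 43 genes, all of which passed the filter on low counts, 5 were higher with CCS1477 and 2 were lower at an adjusted p under 0.05 (quasi-likelihood test of edgeR, Benjamini-Hochberg adjusted over 14928 genes), and 36 did not pass. The higher genes were PDCD6IP (which encodes ALIX), HGS, SNAP23, VPS4A and CHMP1B, and the lower ones were CD9 and EXPH5. Over all tested genes, 7.23% were called higher and 10.7% lower, 17.9% in either direction, while among the 43 genes 11.6% were higher and 4.65% were lower. Since the 43 were also chosen with earlier results of these data known, these shares are not a test of the pathway. The median log2 fold change of the 43 genes was 0.035, beside -0.003 for all tested genes, and 24 of the 43 estimates were above 0, beside 7404 of the 14928. The median size of the log2 fold change, whatever its sign, was 0.164 for the 43 genes and 0.231 for all tested genes. None of the 43 passed 2-fold, a size that 854 tested genes (5.72%) exceeded. In bulk RNA a lower level per cell and fewer expressing cells cannot be told apart.

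In CPM the 3 CCS1477 libraries lay all above or all below the 3 DMSO libraries for 14 of the 43 genes (32.6%), beside 35.9% of all tested genes. Of these 14, 6 lay above and 8 below, beside 16.5% and 19.3% of all tested genes. Among the 36 genes that did not pass, the 95% interval of the fold change stayed within 1.5-fold for 29 and within 2-fold for 34. The exceptions at 1.5-fold were CHMP4A, CHMP6, CD63, CD82, SMPD2, SMPD3 and STX4, and those at 2-fold were CD82 and SMPD3. The counts depended on single libraries, as did those over all tested genes. Without CCS1477 2, 1 gene was higher and 1 lower, without CCS1477 3 the counts were 2 and 1, without DMSO 1 they were 3 and 1, and without DMSO 2 they were 5 and 1. Leaving out DMSO 3 gave 7 higher and 2 lower, and leaving out CCS1477 1 gave 5 and 2. Over all tested genes the full fit called 1079 higher and 1597 lower. These became 489 and 925 without CCS1477 2, 487 and 1042 without CCS1477 3, and 555 and 973 without DMSO 1. They were 1090 and 1532 without DMSO 2, 1311 and 1772 without DMSO 3, and 731 and 1169 without CCS1477 1.

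**Figure D1:**
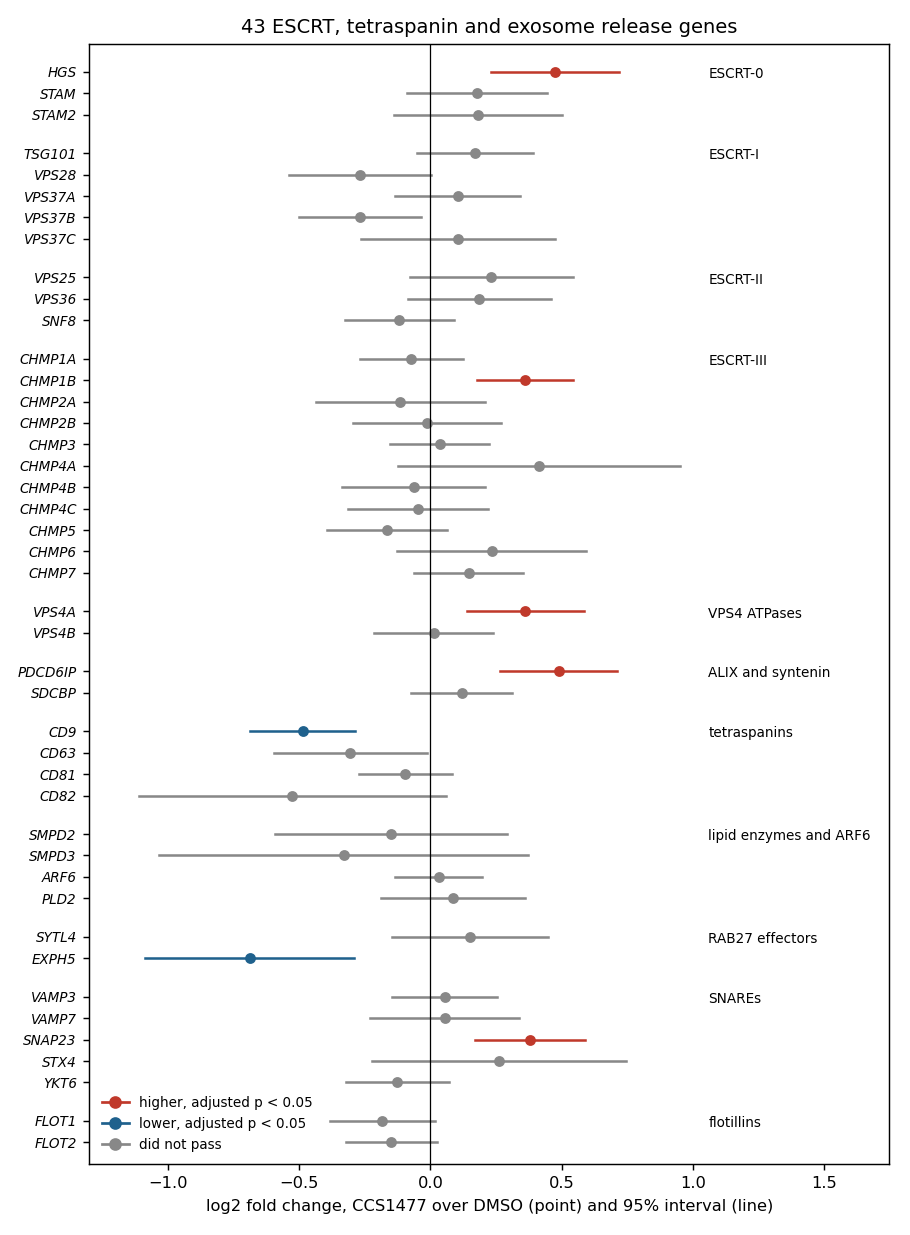
Log2 fold changes of the 43 genes, CCS1477 over DMSO (x axis), ordered by role, with points for the estimates and lines for the 95% intervals. The 5 genes that were higher lie between 0.36 and 0.49, the 2 that were lower lie at -0.49 (CD9) and -0.69 (EXPH5), and the widest intervals belong to SMPD3 and CD82.

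HGS encodes HRS, the ESCRT-0 subunit that binds ubiquitinated cargo and endosomal phosphoinositides (ENSG00000185359, chr17:81683326-81703138, plus strand). It was at 218, 259 and 295 CPM in CCS1477, against 199.6, 175 and 180.1 CPM in DMSO. Every CCS1477 library lay above every DMSO library, with CCS1477 1 closest to the DMSO range and CCS1477 3 highest. HGS rose 1.39-fold (log2 fold change 0.48 ± 0.11, SE, edgeR adjusted p = 0.0124). It did not pass without CCS1477 2 (0.47, adjusted p = 0.0532) or without CCS1477 3 (0.37, adjusted p = 0.0742). On the opposite strand its exons share 303 bases with ARL16 and 945 with AC139530.1, which had 9.5% and 13.8% as many counts, and since the strandedness of the counting is not given, reads of such pairs cannot be told apart (HGS was at 0.43 with their counts added, adjusted p = 0.0194). The partners of HRS, STAM and STAM2, had log2 fold changes of 0.18 ± 0.12 and 0.18 ± 0.15 (SE, adjusted p = 0.353 and 0.431), and their groups overlapped. STAM averaged 53.8 ± 6.96 CPM in CCS1477 and 47.5 ± 4.27 CPM in DMSO, and STAM2 averaged 46.9 ± 6.70 CPM in CCS1477 and 41.1 ± 7.17 CPM in DMSO (SD, n = 3 each).

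ESCRT-I is a complex that includes TSG101, VPS28 and a VPS37 subunit and links ubiquitinated cargo to the later complexes. None of its 5 members among the 43 genes passed edgeR's test, and DESeq2 and limma-voom also called 0. VPS37B had an unadjusted p under 0.05. TSG101, the subunit that binds ubiquitin and the late-domain motifs of viral and cellular partners, was at 56.1, 55.4 and 57.2 CPM in CCS1477 and at 47.7, 54.8 and 47.4 CPM in DMSO. The groups did not overlap, but the gap was small beside the DMSO spread, and the log2 fold change was 0.17 ± 0.10 (SE, adjusted p = 0.285). VPS37B was at 39.5, 43.5 and 44.2 CPM in CCS1477, against 54.7, 47.4 and 51.2 CPM in DMSO. All its CCS1477 libraries were below its DMSO libraries, and its log2 fold change was -0.27 ± 0.11 (SE, adjusted p = 0.105). VPS28 was likewise lower in each CCS1477 library (27.1, 27.5 and 31.8 CPM) than in each DMSO library (32.8, 32.7 and 38.7 CPM), with a log2 fold change of -0.27 and an adjusted p of 0.163. VPS37A and VPS37C had estimates of 0.10 each, with overlapping groups.

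ESCRT-II, which consists of VPS25, VPS36 and SNF8 and recruits the first ESCRT-III subunits, had 3 members with overlapping groups. None passed edgeR's test, none had an unadjusted p under 0.05, and DESeq2 and limma-voom called 0. Their log2 fold changes were 0.23 for VPS25, 0.19 for VPS36 and -0.12 for SNF8. VPS25 showed how 1 library set its spread: it was at 43.3, 43 and 41.6 CPM in CCS1477, against 36.1, 29.1 and 44.2 CPM in DMSO. Only DMSO 3 reached the CCS1477 libraries, and without it VPS25 passed (log2 fold change 0.38, adjusted p = 0.0453).

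ESCRT-III is the family of charged multivesicular body proteins (CHMPs) that polymerise at the bud neck. Of its 11 members among the 43 genes, 1 was higher and 10 did not pass. CHMP1B, a late-acting subunit that binds the VPS4 ATPases and the microtubule-severing ATPase spastin, is encoded at chr18:11851413-11854444 on the plus strand (ENSG00000255112). It was at 144, 152 and 147 CPM in CCS1477, against 119, 108 and 118 CPM in DMSO. The groups stood apart by more than the range within either. CHMP1B rose 1.28-fold (log2 fold change 0.36 ± 0.08, SE, edgeR adjusted p = 0.0124). The call was lost without CCS1477 2 (0.34, adjusted p = 0.0719) and on the log2(TPM + 1) scale with limma (0.42, adjusted p = 0.0668). The antisense gene CHMP1B-AS1 shares 553 exon bases with it and had 7.04% as many counts.

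The other CHMPs lay closer to 0. The core filament subunits CHMP4B, CHMP3 and CHMP2A had log2 fold changes of -0.06, 0.04 and -0.12, and CHMP4C and CHMP2B had -0.05 and -0.01. On the log2(TPM + 1) scale the signs of CHMP4B, CHMP2A, CHMP4C, CHMP2B and CHMP1A were positive, at 0.04 or less. CHMP5 was at -0.16, CHMP7, the subunit that also works at the nuclear envelope, was at 0.15, and CHMP6, the subunit that ESCRT-II contacts, was at 0.23. The estimate for CHMP4A was larger, at 0.41 ± 0.25 (SE, adjusted p = 0.282), and rested on lower counts. It was at 9.54, 12.8 and 10.9 CPM in CCS1477 and at 8.27, 5.56 and 11.4 CPM in DMSO, so DMSO 3 lay among the CCS1477 libraries.

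The VPS4 ATPases VPS4A and VPS4B pull ESCRT-III filaments apart and so recycle the machinery. VPS4A (ENSG00000132612, chr16:69311350-69326939, plus strand) was at 81.8, 94.2 and 95.5 CPM in CCS1477, against 65.1, 70.2 and 76.4 CPM in DMSO. Every CCS1477 library lay above every DMSO library. VPS4A was 1.28-fold higher (log2 fold change 0.36 ± 0.10, SE, edgeR adjusted p = 0.0295). VPS4B, in contrast, was at 55.9, 51.9 and 48.6 CPM in CCS1477 and 47.8, 54.1 and 53.0 CPM in DMSO, and its log2 fold change was 0.01 ± 0.10 (SE, adjusted p = 0.954). The VPS4A call was lost without CCS1477 2 (0.33, adjusted p = 0.128), without CCS1477 3 (0.32, adjusted p = 0.123), without DMSO 1 (0.31, adjusted p = 0.128) and on the log2(TPM + 1) scale (0.42, adjusted p = 0.105). Exons of VPS4A share 1245 bases with COG8 on the opposite strand, which had 73.7% as many counts and a log2 fold change of -0.02, and 1191 bases with AC026464.4 on its own strand, which had 8.13% as many counts. With the counts of overlapping genes added, an alternative chosen after seeing the data, VPS4A was at 0.19 and did not pass (adjusted p = 0.147).

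PDCD6IP, whose product ALIX joins syntenin to ESCRT-III, carried the largest rise of the 43 genes as estimated from counts (ENSG00000170248, chr3:33798571-33869707, plus strand). It was at 189.7, 174 and 179.9 CPM in CCS1477, against 131, 144 and 111 CPM in DMSO. The lowest CCS1477 library stood clear of the highest DMSO library. It rose 1.404-fold (log2 fold change 0.49 ± 0.10, SE, edgeR adjusted p = 0.00682). Its call held without any single library, with log2 fold changes of 0.39 to 0.59 and adjusted p of 0.00199 to 0.0358. Among the 18 alternatives it was lost only in a test against a fold of 1.2 (adjusted p = 0.0659). The pseudogene PDCD6IPP2 matches it over 1069 bases at 96.5% identity, with 5.99% as many counts and a log2 fold change of -0.17, and with those counts added PDCD6IP was at 0.46 (adjusted p = 0.0081).

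SDCBP encodes syntenin, the adaptor that links syndecans and CD63 to ALIX. It was at 199.6, 206 and 225 CPM in CCS1477 and at 185, 187 and 208 CPM in DMSO. The groups overlapped, and the log2 fold change was 0.12 ± 0.09 (SE, adjusted p = 0.394).

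**Figure D2:**
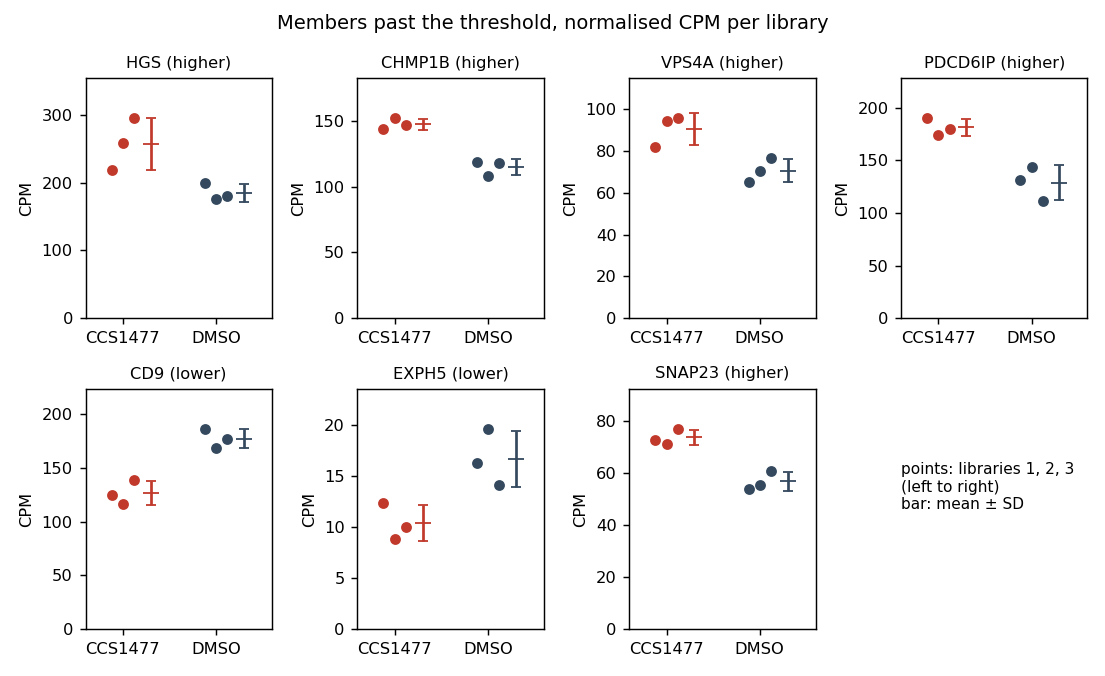
Normalised CPM in each library for the 7 genes past the threshold, with CCS1477 on the left of each panel and DMSO on the right; points are libraries 1, 2 and 3 from left to right, and bars are mean ± SD. In all 7 panels the CCS1477 and DMSO libraries do not overlap, and EXPH5 has the lowest level, at 8.85 to 12.3 CPM in CCS1477 against 14.1 to 19.6 CPM in DMSO.

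The tetraspanins CD9, CD63, CD81 and CD82 organise membrane domains and are used as exosome surface markers; 1 of the 4 was lower and 3 did not pass, although their estimates from counts all lay below 0 (median -0.397), that of CD82 being above 0 on the TPM scales. CD9 (ENSG00000010278, chr12:6199715-6238271, plus strand) was at 124, 117 and 138 CPM in CCS1477, against 186, 169 and 177 CPM in DMSO. The highest CCS1477 library was well below the lowest DMSO library. CD9 fell to 0.713 of its DMSO level (log2 fold change -0.49 ± 0.09, SE, edgeR adjusted p = 0.00382), the smallest adjusted p of the 43 genes. The call held without any single library (adjusted p from 0.00196 to 0.0355) and was lost on the log2(TPM + 1) scale (-0.45, adjusted p = 0.061).

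CD63, a tetraspanin of late endosomes and lysosomes, was at 214, 253 and 258 CPM in CCS1477, against 261, 265 and 371 CPM in DMSO. All CCS1477 libraries were below all DMSO libraries, but CCS1477 3 was close to DMSO 1 and the DMSO spread came from DMSO 3. Its log2 fold change was -0.31 ± 0.13 (SE, 95% interval -0.60 to -0.01, adjusted p = 0.138), and with no filter on low counts it passed (-0.29, adjusted p = 0.0343). CD81, the receptor for hepatitis C virus, was at 175, 182 and 189.6 CPM in CCS1477 and 201, 190.4 and 192 CPM in DMSO, so the groups did not overlap but nearly touched. Its log2 fold change was -0.10 ± 0.08 (SE, adjusted p = 0.459).

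CD82, known as a suppressor of metastasis in prostate cancer, was at 5.50, 10.1 and 6.40 CPM in CCS1477 and at 9.21, 8.55 and 14.4 CPM in DMSO. The groups overlapped through CCS1477 2, and the log2 fold change of -0.53 ± 0.27 (SE, adjusted p = 0.205) was less certain than that of CD9, from counts of 49 to 117 a library. On the log2(TPM + 1) scale its sign was the opposite, at 0.18.

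Of the lipid enzymes and ARF6, none of 4 passed edgeR's test, none had an unadjusted p under 0.05, and DESeq2 and limma-voom called 0. ARF6, a small GTPase that acts with phospholipase D2 in the syntenin route, was at 432, 419 and 427 CPM in CCS1477 and 407, 421 and 422 CPM in DMSO. These overlapping values gave one of the narrowest intervals, with a log2 fold change of 0.03 (95% interval -0.13 to 0.20). PLD2, which encodes phospholipase D2, was at 0.09. The neutral sphingomyelinases, which release ceramide from sphingomyelin, were sparse: SMPD2 had a log2 fold change of -0.15 (95% interval -0.59 to 0.29) and SMPD3 one of -0.33 (95% interval -1.03 to 0.37). SMPD3 had 39, 47 and 23 counts in CCS1477 and 50, 45 and 58 in DMSO, 23 being the smallest count of any of the 43 genes. Its exons share 239 bases with PRMT7 on the opposite strand, which had 926% as many counts.

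The RAB27 effectors tether multivesicular bodies and secretory granules to the plasma membrane. EXPH5 (also called SLAC2-B; ENSG00000110723, chr11:108505435-108593768, minus strand) was at 12.3, 8.85 and 9.94 CPM in CCS1477, against 16.3, 19.6 and 14.1 CPM in DMSO. The groups did not overlap, with CCS1477 1 nearest to DMSO 3. EXPH5 fell to 0.620 of its DMSO level (log2 fold change -0.69 ± 0.18, SE, edgeR adjusted p = 0.0228). From counts this was the largest estimate of the 43 genes in either direction, which did not hold on the log2(TPM + 1) scale. The call was lost without CCS1477 2 (-0.58, adjusted p = 0.103), CCS1477 3 (-0.66, adjusted p = 0.0845), DMSO 1 (-0.70, adjusted p = 0.0695) or DMSO 2 (-0.55, adjusted p = 0.0698), and on the log2(TPM + 1) scale (-0.34, adjusted p = 0.383). Its counts were 85 to 110 a library in CCS1477 and 115 to 229 in DMSO.

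The 250 bases upstream of EXPH5 are shown because EXPH5 had the largest estimate from counts and no exon annotated in GENCODE 29 lies in them (RefSeq, GRCh38.p14, chr11:108593769-108594018, minus strand, 5′ to 3′). Capitals mark matches to the GC box letters GGGCGG, read on either strand, and to CCAAT, here on the other strand.
EXPH5 upstream: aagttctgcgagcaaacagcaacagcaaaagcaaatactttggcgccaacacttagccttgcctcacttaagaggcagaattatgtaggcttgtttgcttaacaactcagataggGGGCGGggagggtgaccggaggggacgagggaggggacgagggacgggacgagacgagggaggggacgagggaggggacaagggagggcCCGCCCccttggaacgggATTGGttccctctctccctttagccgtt
The window holds 13 CpG and 58.0% G or C, below the medians of 22 and 65.2% over the 33 of the 43 genes with an entry in the RefSeq promoter table. The matches begin 135 and 46 bases before the gene start for the GC box and 28 bases before it for CCAAT.

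SYTL4, the RAB27 effector also called granuphilin, was at 25.02, 24.9 and 20.1 CPM in CCS1477 and at 20.6, 22.5 and 19.9 CPM in DMSO, with overlapping groups. Its log2 fold change was 0.15 ± 0.14 (SE, adjusted p = 0.489). Its TPM disagreed with its counts in 1 library: it was listed at 61.9, 10.9 and 10.7 TPM in CCS1477 and 9.19, 11.7 and 7.43 TPM in DMSO. CCS1477 1 alone stood out per length, although its 223 counts were between the 239 and 176 of the other CCS1477 libraries.

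Among the SNAREs, the proteins whose zippering fuses membranes, 1 of 5 was higher. SNAP23, the plasma membrane SNARE that supplies a pair of helices to the fusion complex (ENSG00000092531, chr15:42491233-42545356, plus strand), was at 72.9, 71.4 and 77.0 CPM in CCS1477, against 54.0, 55.5 and 61.0 CPM in DMSO. The groups stood well apart. It rose 1.3-fold (log2 fold change 0.38 ± 0.10, SE, edgeR adjusted p = 0.0184). The call was lost without CCS1477 2 (0.40, adjusted p = 0.0603), CCS1477 3 (0.35, adjusted p = 0.0829) or DMSO 1 (0.35, adjusted p = 0.0846), and on the log2(TPM + 1) scale (0.41, adjusted p = 0.11). Its exons share 1394 bases with AC018362.1 and 221 with LRRC57 on the opposite strand, which had 31.5% and 49.0% as many counts, and with these added SNAP23 was at 0.28 (adjusted p = 0.0366).

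The other SNAREs did not pass. Their log2 fold changes were 0.05 for VAMP3 and 0.05 for VAMP7, vesicle SNAREs of recycling and late endosomes, and -0.13 for YKT6, a lipid-anchored SNARE. STX4, the plasma membrane syntaxin that pairs with SNAP23, was at 34.2, 56.2 and 46.1 CPM in CCS1477 and at 34.2, 27.9 and 52.8 CPM in DMSO. The libraries of each group varied more than the groups differed, and the log2 fold change was 0.26 ± 0.22 (SE, adjusted p = 0.461). Without DMSO 3, STX4 passed (0.55, adjusted p = 0.04).

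The flotillins FLOT1 and FLOT2 scaffold lipid rafts and are used as vesicle markers. Neither passed edgeR's test or had an unadjusted p under 0.05, and DESeq2 and limma-voom called 0 of the 2. FLOT1 was at 191, 210.5 and 209 CPM in CCS1477, against 224, 216 and 255 CPM in DMSO, and FLOT2 was at 189, 196 and 187 CPM in CCS1477, against 204, 213 and 217 CPM in DMSO. For both genes all CCS1477 libraries lay below all DMSO libraries by a small margin. The log2 fold changes were -0.18 ± 0.09 for FLOT1 and -0.15 ± 0.08 for FLOT2 (SE, adjusted p = 0.196 and 0.227).

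Levels between the genes were compared per length, in TPM. CD63 was the most abundant of the 43, at 455 ± 30.6 TPM in CCS1477 and 539.6 ± 90.4 TPM in DMSO (SD, n = 3 each). In DMSO CD9 came next, at 166 ± 12.2 TPM in CCS1477 and 227 ± 20.7 TPM in DMSO, and CD81 was at 208 ± 3.68 TPM in CCS1477 and 217 ± 29.8 TPM in DMSO. HGS was at 218 ± 23.5 TPM in CCS1477 and 142 ± 20.9 TPM in DMSO, above CD9 in CCS1477 and below it in DMSO. The median over the 43 genes was 50.5 TPM in DMSO, with 10 genes over 100 TPM and 3 under 10 TPM (SYTL4, EXPH5 and SMPD3). Of the 42 pairs of neighbours in this order, 36 had overlapping ranges in DMSO, so their order is not separated by the replicates. The lowest were EXPH5, at 1.48 ± 0.374 TPM in CCS1477 and 2.14 ± 0.465 TPM in DMSO, and SMPD3, at 1.063 ± 0.329 TPM in CCS1477 and 1.49 ± 0.319 TPM in DMSO (SD, n = 3 each).

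**Figure D3:**
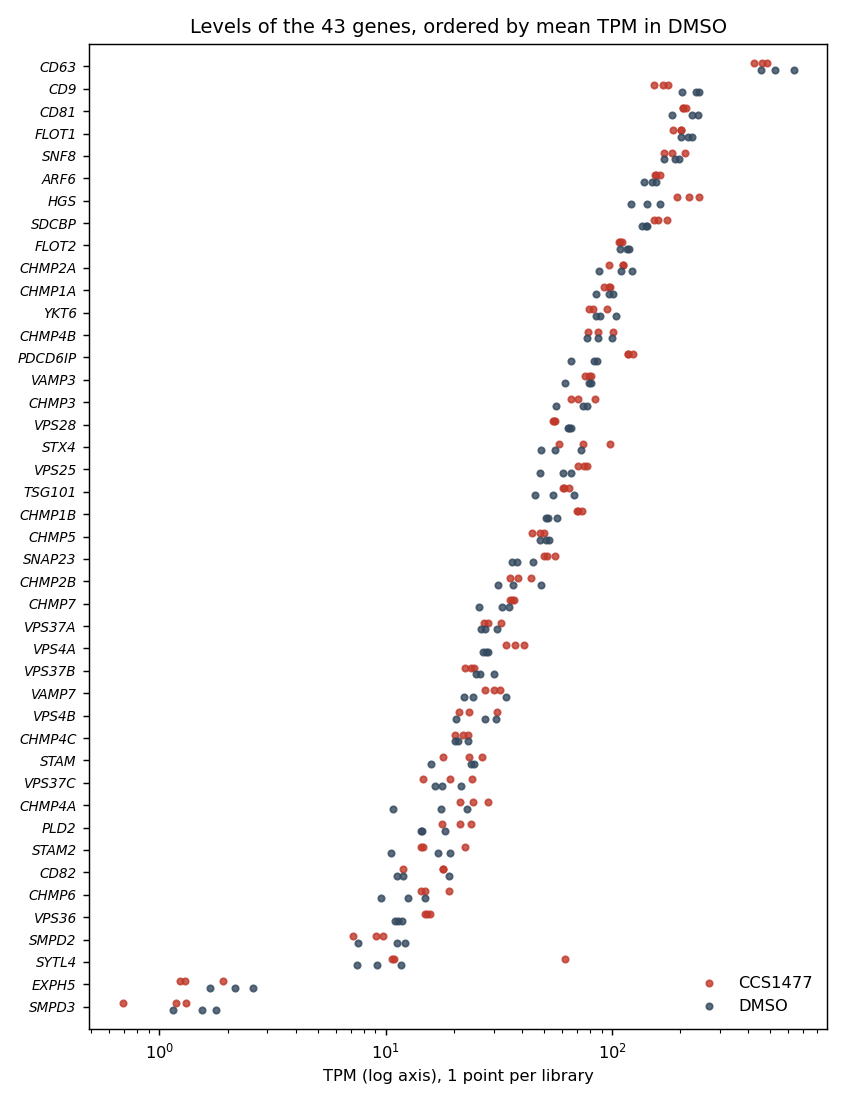
TPM of the 43 genes in each library (x axis, log scale), 1 point per library, CCS1477 above DMSO in each row, rows ordered by mean TPM in DMSO. CD63 leads at 539.6 TPM in DMSO, the 10 highest genes exceed 100 TPM, and the single CCS1477 point far to the right of its row is SYTL4 in CCS1477 1, at 61.9 TPM.

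The shares that family members took of the transcripts, per length, were uneven in some families. CHMP4B gave 65.1% to 71.1% of the summed TPM of the CHMP4 genes over the 6 libraries, CHMP4A 9.88% to 18.7% and CHMP4C 15.2% to 19.1%. CD63 gave 47.6% to 61.5% of the summed TPM of the 4 tetraspanins, while CD82 gave 1.09% to 2.07%. The VPS37 genes were more even, with 36.6% to 43.4% for VPS37A, 29.8% to 38.7% for VPS37B and 21.3% to 30.0% for VPS37C.

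Ratios of paralogues within a library cancel that library's scaling. The ratio of VPS4A to VPS4B in CPM was 1.46, 1.82 and 1.97 in CCS1477, against 1.36, 1.297 and 1.44 in DMSO. The ratio of CHMP1B to CHMP1A was 1.24, 1.2 and 1.19 in CCS1477, against 0.869, 0.920 and 0.907 in DMSO. In CPM every CCS1477 library exceeded every DMSO library for both pairs, by 0.347 and 0.432 in mean log2 ratio. Per length the VPS4 groups overlapped. VPS4A took 52.1%, 63.5% and 63.9% of the summed TPM of VPS4A and VPS4B in CCS1477, against 46.7%, 50.7% and 57.5% in DMSO. The VPS4A call was also lost with the counts of overlapping genes added, as given above. A two-sided exact permutation test gave p = 0.1 for each, the smallest that 3 against 3 libraries allow (0.25 adjusted over the 5 pairs computed). The ratios of CHMP2B to CHMP2A, STAM2 to STAM and FLOT2 to FLOT1 overlapped between the groups, with mean log2 differences of 0.092, 0.020 and 0.033 (exact permutation p = 0.8, 0.9 and 0.7).

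**Figure D4:**
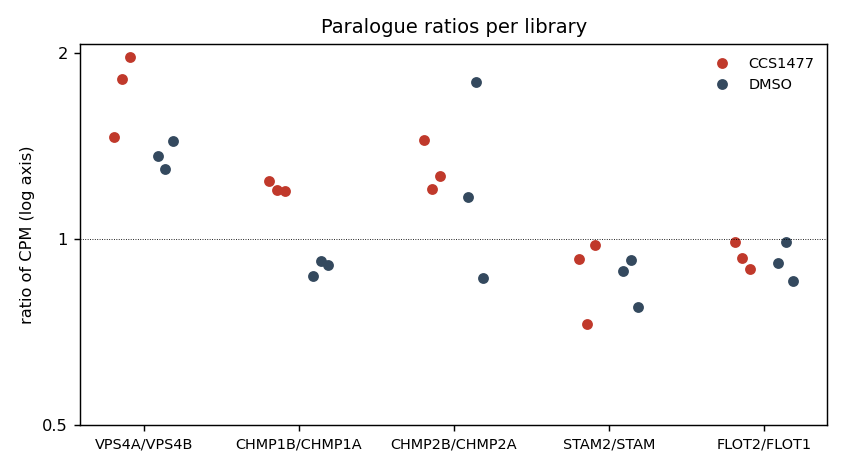
Ratio of CPM between paralogues in each library (y axis, log scale), with CCS1477 left of DMSO for each of 5 pairs and 1 point per library. CHMP1B over CHMP1A is above 1 in the 3 CCS1477 libraries and below 1 in the 3 DMSO libraries, and the groups of the last 3 pairs overlap.

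Other genes of the same pathways were read from 5 lists of 129 genes, 119 of them tested. In these, 15 (12.6%) were higher with CCS1477 and 20 (16.8%) lower, beside 7.23% and 10.7% of all tested genes. Because the lists were chosen with earlier results of these data known, these shares are not a test of the pathways. The count of higher genes in the lists was 9 without CCS1477 1, 4 without CCS1477 2, 5 without CCS1477 3, 7 without DMSO 1 and 10 without DMSO 2. Over all tested genes the 1079 higher became 731, 489, 487, 555 and 1090 in the same order. Several genes of the lists changed by more than any of the 43. Of 29 ESCRT accessory and ubiquitin genes, 3 were higher and 2 lower (median log2 fold change 0.132). LITAF, an adaptor that binds ESCRT components and NEDD4-family ligases, was at 45.4, 47.4 and 48.2 CPM in CCS1477, against 85.0, 82.6 and 84.1 CPM in DMSO. It fell by 0.84 on the log2 scale (adjusted p = 0.000103), and the ubiquitin ligase NEDD4 fell by 0.74 (152 ± 14.9 CPM in CCS1477 and 254 ± 42.98 CPM in DMSO, adjusted p = 0.00195). The higher genes included ARRDC1, the arrestin that recruits TSG101 to plasma membrane vesicles (0.48, adjusted p = 0.0125), and PTPN23, an ALIX relative (0.41, adjusted p = 0.0189). ARRDC1 did not pass without CCS1477 3 (adjusted p = 0.0684), nor did PTPN23 without CCS1477 2 (adjusted p = 0.0862) or CCS1477 3 (adjusted p = 0.1).

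Of 22 other tetraspanins and their partners, 4 were higher and 6 lower (median log2 fold change -0.294). TSPAN1 was at 2.80, 2.50 and 4.11 CPM in CCS1477, against 13.0, 10.3 and 10.9 CPM in DMSO, and fell by 1.86 on the log2 scale (adjusted p = 0.000303). TSPAN18 fell by 1.33 (adjusted p = 0.00473), and PTGFRN, which binds CD9 and CD81, fell by 0.47 with 88.4 ± 4.92 CPM in CCS1477 and 122 ± 5.00 CPM in DMSO (SD, n = 3 each, edgeR adjusted p = 0.00363). TSPAN7 rose by 0.88 (adjusted p = 0.00531) and TSPAN3 by 0.36 (adjusted p = 0.00906), and TSPAN3 did not pass without CCS1477 2 (adjusted p = 0.0584).

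Of 31 other SNARE and docking genes, 4 were higher and 2 lower (median log2 fold change 0.023). UNC13D, whose product Munc13-4 is a RAB27 effector that primes secretory granules, was at 2.69, 2.81 and 1.94 CPM in CCS1477, against 9.12, 7.44 and 7.24 CPM in DMSO. It fell by 1.67 on the log2 scale (adjusted p = 0.000939), from counts of 17 to 27 in CCS1477 and 59 to 107 in DMSO. UNC13D and EXPH5 were thus lower, while SYTL4 did not pass. Nor did SYTL1 (-0.02, adjusted p = 0.955), SYTL2 (-0.19, adjusted p = 0.594) or SYTL3 (-0.95, adjusted p = 0.176) of the same list. SYT7, a calcium sensor of lysosome exocytosis, fell by 0.83 (adjusted p = 0.0262) but did not pass without CCS1477 1 (adjusted p = 0.0933), CCS1477 3 (adjusted p = 0.108) or DMSO 1 (adjusted p = 0.0974). The autophagosomal syntaxin STX17 rose by 0.57 (adjusted p = 0.0076) and the late endosomal syntaxin STX7 by 0.41 (adjusted p = 0.0167). STX7 did not pass without CCS1477 1 (adjusted p = 0.0559), CCS1477 2 (adjusted p = 0.0777) or DMSO 1 (adjusted p = 0.076).

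Of 22 other ceramide, phospholipid and raft genes, 2 were higher and 5 lower (median log2 fold change -0.052). CAV1, which encodes the caveolar coat protein caveolin-1, was at 48.4, 36.5 and 46.9 CPM in CCS1477, against 112, 119 and 100.3 CPM in DMSO, and fell by 1.33 on the log2 scale (adjusted p = 2.58e-05). CAV2 fell by 0.51 (adjusted p = 0.00534). UGCG, which converts ceramide to glucosylceramide, fell by 0.99, with 86.4 ± 3.79 CPM in CCS1477 and 171 ± 3.91 CPM in DMSO (SD, n = 3 each, edgeR adjusted p = 1.56e-05). SMPD1, the acid sphingomyelinase of lysosomes, was at 27.4, 37.4 and 42.3 CPM in CCS1477, against 13.3, 16.2 and 13.0 CPM in DMSO, and rose by 1.33 (adjusted p = 0.000344). The neutral sphingomyelinases among the 43 genes did not pass. DGKA, a diacylglycerol kinase, was at 0.38 (adjusted p = 0.0459) and did not pass without any 1 of the CCS1477 libraries (adjusted p = 0.144, 0.111 and 0.0769 for libraries 1, 2 and 3), DMSO 1 (0.0899) or DMSO 2 (0.0984), nor with DESeq2 (0.39, adjusted p = 0.0515).

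Of 15 vesicle cargo markers, 2 were higher and 5 lower (median log2 fold change -0.195). The transferrin receptor gene TFRC, whose product is shed on exosomes by maturing reticulocytes, was at 446, 492 and 460.4 CPM in CCS1477, against 844, 889.9 and 840.0 CPM in DMSO. It fell by 0.88 on the log2 scale (adjusted p = 2.53e-05). LGALS3BP fell by 1.42 (adjusted p = 9.96e-05), the endocytic receptor LRP1 by 0.89 (adjusted p = 0.000409) and the integrin subunit ITGB1 by 0.37 (adjusted p = 0.00392). The chaperone HSPA8 and the phosphatidylserine-binding MFGE8 were at 0.28 and 0.36 (adjusted p = 0.0229 and 0.0273). HSPA8 did not pass without CCS1477 1, 2 or 3 (adjusted p = 0.057, 0.132 and 0.0583) or DMSO 1 (0.0868), and MFGE8 did not pass without CCS1477 2 (0.0957), CCS1477 3 (0.124) or DMSO 2 (0.0643). On the log2(TPM + 1) scale with limma, 15 of the 24 genes named from these lists did not pass (adjusted p from 0.0625 to 0.242), and ARRDC1, TSPAN1, STX7, UGCG, CAV1, SMPD1, CAV2, TFRC and LGALS3BP passed.

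**Figure D5:**
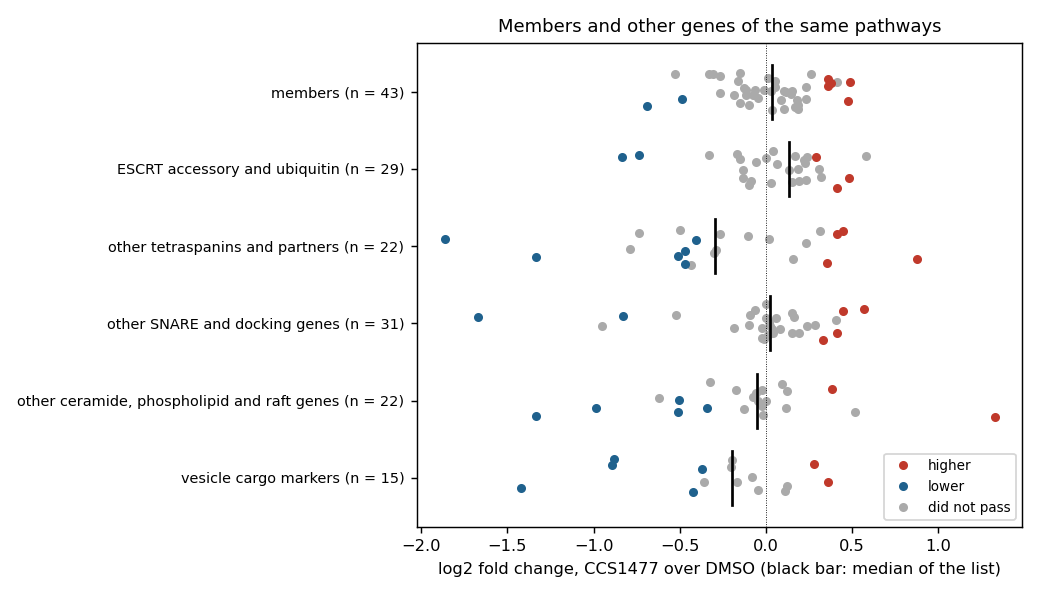
Log2 fold changes, CCS1477 over DMSO (x axis), of the 43 genes (top row) and of the tested genes of 5 lists from the same pathways, 1 point per gene, with a black bar at each median. The 43 genes lie between -0.69 and 0.49, while the lists reach -1.86 (TSPAN1) and 1.33 (SMPD1).

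The promoters of 33 of the 43 genes, the 7 that passed included, were in the RefSeq table (GRCh38.p14), and the 250 bases before each RefSeq start were searched on both strands for 8 motifs. RefSeq starts can lie downstream of the gene starts in the files, so 17 of the 33 windows reach into the gene as the files give it and 16 lie wholly before it. The ETS letters CCGGAAG were in 14 of the 33 windows (42.4%), beside 1869 of the 15841 windows of protein-coding genes (11.8%). Those 15841 were not limited to genes expressed in these libraries, whereas all 43 genes passed the filter on low counts. A comparison with expressed genes alone was not made. They were in 1 of the 7 genes that passed, PDCD6IP, and in 13 of the 26 others. The sites of PDCD6IP and of the 5 most abundant other genes that hold the letters, ranked by TPM, are shown with 9 bases on each side, since this was the motif whose share stood furthest from that of all promoters. Capitals mark the ETS letters, and the strand is that of the printed run. The runs of PDCD6IP, CD63, SNF8 and CHMP1A touch the gene span of the files, and those of CHMP2A and FLOT2 lie before it.
PDCD6IP, chr3:33798572-33798596, plus strand: ctggagctcCCGGAAGttgccggac
CD63, chr12:55729189-55729213, plus strand: ggcccctacCCGGAAGaaggcgccc
SNF8, chr17:48944839-48944863, plus strand: ctgcacgcgCCGGAAGccacgagcc
CHMP2A, chr19:58555129-58555153, plus strand: cgcccgcacCCGGAAGgttgggaaa
FLOT2, chr17:28897837-28897861, plus strand: tgcatccgcCCGGAAGgcgtcccct
CHMP1A, chr16:89657706-89657730, minus strand: cccgtgcgaCCGGAAGtggggcggc
The other motifs were the GC box GGGCGG (21 of the 33 windows, 63.6% beside 56.0% of all), CCAAT (8, 24.2% beside 34.5%), the E box CACGTG (4, 12.1% beside 7.84%), AP-1 TGANTCA (2, 6.06% beside 5.04%), CRE TGACGTCA (2, 6.06% beside 2.32%), the NRF1 motif (1, 3.03% beside 1.48%) and TATAAA (0, beside 9.24%). Of the genes that passed, CHMP1B held the CRE letters, and HGS, CD9, EXPH5 and SNAP23 held CCAAT. The windows of HGS and SNAP23 lie wholly inside the gene as the files give it, as do 231 bases of the CD9 window. Those of CHMP1B and EXPH5 lie wholly before the gene. The windows of the 33 genes had a median of 65.2% G or C and 22 CpG, beside 62.4% and 17 over all protein-coding promoters. These matches are letters in a window, and no binding was measured in these samples.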

How the data were processed

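Poly-A RNA libraries of DU145 were sequenced, 3 with CCS1477 and 3 with DMSO, grouped by sample title. The authors deposited estimated counts per gene, not normalized, and TPM, scaled by the authors to the same sum in each library. The submitters' processing notes name Trimmomatic 0.39. Not given in the sources used here were the aligner, quantifier, build and strandedness. All 43 gene IDs are in GENCODE 29 (GRCh38), 13 with equal start and end. Coordinates are those of the files.

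Estimated counts were rounded to whole numbers. Genes were kept by filterByExpr (minimum count 10, total 15), which left 14928 of the 25155 with a count. TMM factors and the quasi-likelihood test of edgeR 4.0.16 (R 4.3.3) were used without covariates, with Benjamini-Hochberg adjustment at 0.05. Intervals are 95% intervals. The fit was tested on simulated data. The alternatives used DESeq2 1.42.0 and limma 3.58.1. Exon overlaps of at least 50 bases came from GENCODE 29, and copies of at least 95% identity over 200 bases from BLAST+ 2.17.0. Figures used matplotlib 3.10.9 and permutation tests scipy 1.17.1.

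All 43 genes are named. From each other list up to 4 genes with the smallest adjusted p and up to 2 of the opposite sign were named, plus genes overlapping a member. The members and lists were chosen with earlier results of these data known. One cell type marker is not reported here.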

Additional observations from a re-analysis of the deposited data

How the results depend on the processing

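Of the 43 genes, 5 were higher and 2 lower, and scaling by DESeq2 size factors, upper quartiles or library size, DESeq2 and limma-voom left both numbers as they were. With the counts of overlapping genes and copies added, an alternative chosen after seeing the data, 4 were higher and 2 lower. With limma on log2(TPM + 1), and on log2(TPM + 0.1), 2 and 2 genes were higher and 0 and 0 lower, at an adjusted p under 0.01 1 was higher and 1 lower, and in a test against a fold of 1.2 0 were higher and 1 lower. For the 15 higher genes of the other lists these 4 settings gave 5, 5, 4 and 3, and for the 20 lower ones 6, 5 and 10 on the TPM scales and against a fold of 1.2. Over all genes they gave 293, 280, 380 and 369 higher and 427, 410, 852 and 846 lower. The cause was not tested. Leaving out 1 library gave 1 to 7 of the 43 genes higher and 1 to 2 lower, 4 to 16 and 15 to 22 in the other lists, and 487 to 1311 and 925 to 1772 over all genes.

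Signs changed only for genes that did not pass. On the 2 TPM scales SNF8 was at 0.0176 and 0.0177, CHMP1A at 0.0181 and 0.0183, CHMP2A at 0.0064 and 0.0065, CHMP2B at 0.0352 and 0.0364, CHMP4B at 0.0087 and 0.0088, CHMP4C at 0.0183 and 0.0191, VPS4B at -0.0554 and -0.0573 and CD82 at 0.1804 and 0.1923. CHMP2B was also at 0.0039 with upper quartiles, 0.0348 with library size and 0.0024 with no filter. Leaving out 1 library gave -0.0425 to 0.2548 for VPS37C, -0.249 to 0.0546 for CHMP2A, -0.1096 to 0.1279 for CHMP2B, -0.164 to 0.0308 for CHMP4B, -0.0882 to 0.0182 for CHMP4C, -0.0357 to 0.0612 for VPS4B, -0.2513 to 0.0142 for SMPD2, -0.0229 to 0.1057 for VAMP3 and -0.0184 to 0.2202 for VAMP7. Same-numbered libraries deviated with correlations of -0.087, -0.196 and -0.007, and libraries of unlike number with -0.187 to 0.268. Whether any libraries were handled together was not tested. With the replicate block, which pairs libraries by number, 5 of the 43 genes were higher and 2 lower. The block gave 10 higher and 20 lower in the other lists. Over all tested genes it gave 799 higher and 1306 lower, beside 1079 and 1597 without it. Of the named genes, DGKA (adjusted p = 0.0779), HSPA8 (0.088) and MFGE8 (0.0533) did not pass with the block. Depth limits the genes with few counts, such as SMPD3, with 23 in 1 library.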
